A study of Homo sapiens with 8 samples.

Results

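The 10 genes described here, FOS, FOSB, FOSL1, JUN, JUNB, EGR1, ATF3, MYC, IER2 and IER3, are immediate early genes, and they were chosen by name, with earlier results of these data known. All 10 were among the 58217 genes with a matched transcript and the 18201 genes tested. They were followed in OPCs (oligodendrocyte progenitor cells) that had been differentiated from H9, a human embryonic stem cell line in wide use. The OPCs had spent 2 days in OPC medium on 1 of 3 coatings, with no forced expression of SOX10 in any group. Matrigel, a basement membrane extract, was the control coating (n = 2, replicates 2 and 3). The others were VN, which is vitronectin, an adhesive glycoprotein bound by integrins (n = 3), and VNP2, a peptide designed from vitronectin (n = 3). The authors fused the peptide to mussel adhesive protein and bound it to a chemically activated surface. All libraries came from a single cell line, and the labels do not say whether the replicates of a coating were separate cultures, so p-values measure the spread between these libraries, which may be technical.

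Immediate early genes are transcribed within minutes of a stimulus such as a growth factor, adhesion or stress, before any new protein is needed, and their transcripts are short-lived. Many are switched on through serum response factor (SRF) with its ternary complex partners at CArG boxes, and through CREB at cyclic AMP response elements. FOS and JUN family proteins pair to form AP-1, which then acts on later genes of proliferation, matrix remodelling and invasion, and in OPCs such genes respond to mitogens.

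The promoters of 3 members are shown because they hold, outside any annotated exon, motifs of the kind described above or a TATA box. Each is 115 bases long, on the plus strand of GRCh38.p14, running from position -120 to -6 before the RefSeq start, and lies at chr5:138465359-138465473 for EGR1, chr19:45467876-45467990 for FOSB and chr19:12791366-12791480 for JUNB. Capitals mark matches to 3 motifs, each searched on both strands: the CArG box, TGACGT, which is the core of a cyclic AMP response element, and TATAAA, known as the TATA box.
EGR1: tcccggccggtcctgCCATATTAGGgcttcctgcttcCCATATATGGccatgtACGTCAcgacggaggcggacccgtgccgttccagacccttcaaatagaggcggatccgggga
FOSB: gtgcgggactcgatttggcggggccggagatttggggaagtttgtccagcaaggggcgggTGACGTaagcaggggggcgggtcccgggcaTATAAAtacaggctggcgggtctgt
JUNB: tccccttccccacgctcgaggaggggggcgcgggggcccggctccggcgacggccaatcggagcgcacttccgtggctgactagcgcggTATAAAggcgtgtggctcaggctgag

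The EGR1 promoter held 2 CArG boxes, at -105 to -96 and -83 to -74, and TGACGT in reverse at -67 to -62 and, further upstream than shown, at -136 to -131. FOSB held TGACGT at -60 to -55 and TATAAA at -30 to -25, and JUNB held TATAAA at -31 to -26. RefSeq windows were found for 7 of the 10 members, 8 windows in all because ATF3 has 2. Only the 250 bases before each start were searched. A CArG box further upstream, in FOS or another member, would have been missed. The ATF3 windows end at chr1:212565406 and chr1:212615017. Neither adjoins chr1:212608670, the start of the transcript with 87.9 to 90.7% of the ATF3 counts, so that promoter was not searched. A CArG box was found in 1 of the 8 windows against 1.16% of all 35116 windows, TGACGT in 3 against 7.10%, and TATAAA in 4 against 10.7%. The FOS window held TGACGT at -64 to -59 and TATAAA at -33 to -28. The ATF3 window ending at chr1:212615017 held TATAAA at -230 to -225. These matches are letters only, and binding was not measured.

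The libraries held 37997896 to 39429453 estimated counts each. Counting error was largest for FOSB, with 16.3 to 30.5 normalized counts in the libraries from VN and VNP2. VN replicate 1 stood further from its replicates than any other library, with a median chi-square per gene of 2.04 to 2.08. It was lower for every other pair of replicates, the lowest at 1.18, where sampling noise gives 0.455. Without it 10 members were called for VN against Matrigel, 8 for VNP2 against Matrigel and 5 for VNP2 against VN, the same numbers as with it, while all genes called went from 2778 to 3899, from 3016 to 3608 and from 928 to 1996. The OPC label was checked on OLIG1, OLIG2, NKX2-2, PDGFRA, CSPG4 and SOX10. The first 5 were expressed. The sum of all 6 was 107 to 109 TPM on Matrigel, 136 to 138 in VN libraries and 138 to 145 in VNP2 libraries, where TPM is a level per transcript length, scaled to the same total in every library. SOX10 had 20 counts over all 8 libraries and was not tested. Fewer cells of a type and less RNA per cell cannot be told apart in these bulk samples.

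Across the 3 substrates, all 10 members differed, against 19.3% of all genes tested (quasi-likelihood F test in edgeR, Benjamini-Hochberg adjusted p under 0.05, the threshold for every call below). The order of the means was Matrigel over VNP2 over VN for 6 members (FOS, FOSB, FOSL1, JUN, JUNB and EGR1), an order held by 19.3% of all genes. It was Matrigel over VN over VNP2 for IER3, MYC and ATF3 (18.4% of all genes), although MYC had VNP2 just over VN, 841 against 833, in the authors' normalized counts, and VNP2 over Matrigel over VN for IER2 (11.6%). No member had its lowest mean on Matrigel, as 19.4% of all genes did with VNP2 highest and 19.5% with VN highest, and none had VN over Matrigel over VNP2 (11.8%).

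**Figure D1:**
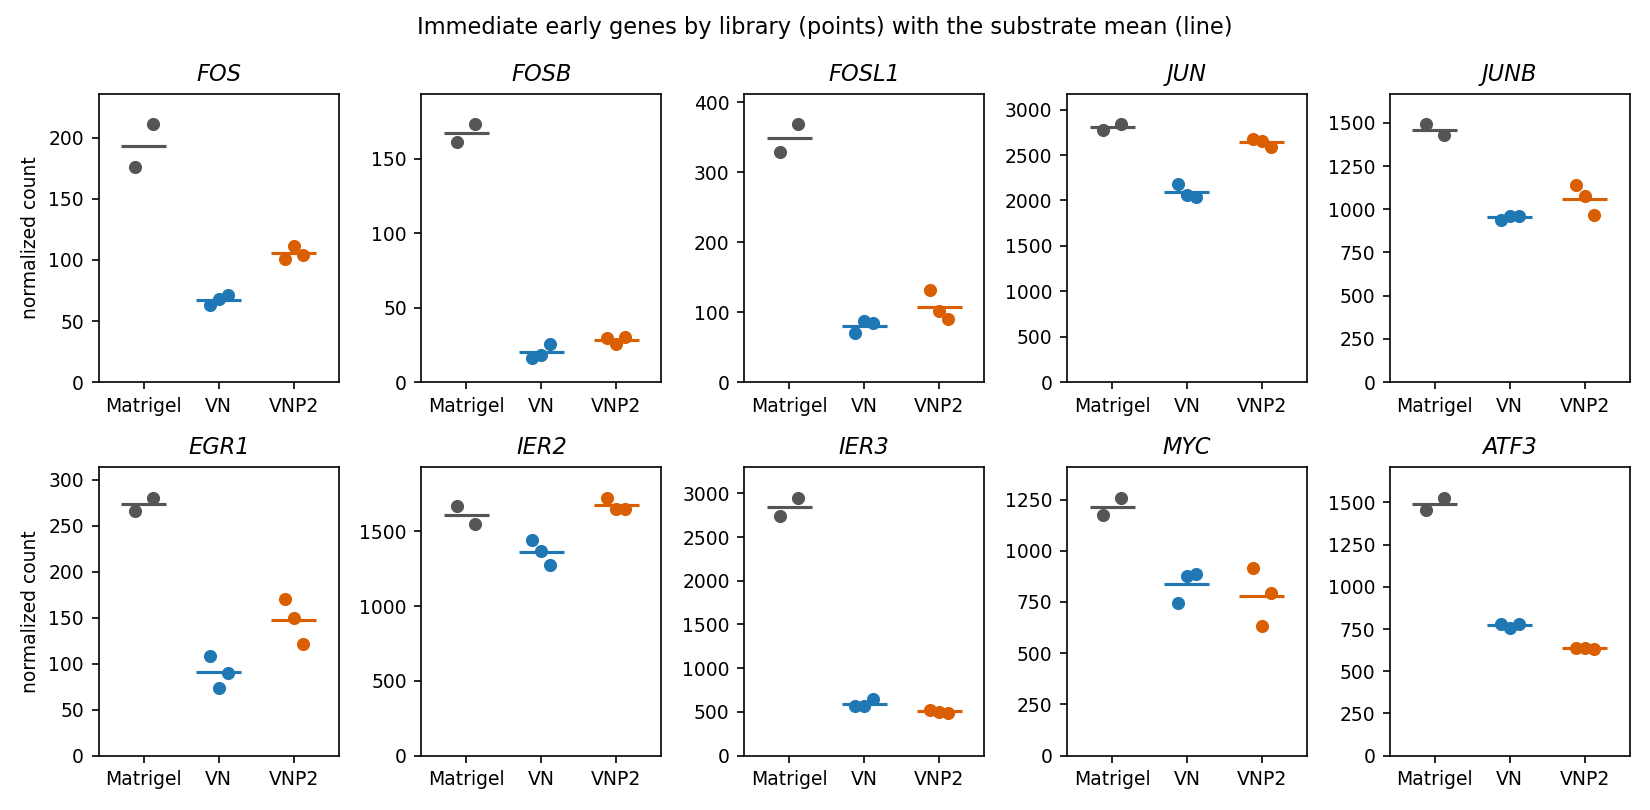
Normalized counts of each member (vertical axis, from 0) in each library on Matrigel, VN and VNP2 (points), with the mean of the substrate as a line. The Matrigel libraries lie above all VN libraries in all 10 panels and above all VNP2 libraries in every panel but that of IER2.

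VN against Matrigel asks how each member's level on the vitronectin protein compared with the control coating. All 10 members fell on VN, against 15.3% of all genes called in either direction (9.60% lower and 5.66% higher), and in none did the VN and Matrigel libraries overlap (44.4% of all genes did not overlap). The median log2 fold change of the members was -1.24, and the falls ran from -0.24 for IER2 to -3.06 for FOSB. VNP2 against Matrigel asks the same of the peptide coating. On VNP2, 8 members fell and none rose, against 16.6% of all genes called (9.13% lower and 7.44% higher), with a median log2 fold change of -0.89. In 9 members the libraries did not overlap (48.1% of all genes). Without Matrigel replicate 2 or 3, 8 members were called on VN in each case, with 1226 and 1188 of all genes, and 8 and 7 on VNP2, with 1637 and 1609 of all genes. These comparisons share the Matrigel libraries, so they are not independent of each other.

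VNP2 against VN asks whether the peptide coating and the protein coating differed. Here the peptide cannot be told apart from its carrier protein and its attachment. FOS, JUN, EGR1 and IER2 were higher on VNP2 and ATF3 was lower, so 5 of 10 were called, against 5.10% of all genes (3.09% higher, 2.01% lower). The members called were 3 without VN replicate 2, VN replicate 3 or VNP2 replicate 2, 2 without VNP2 replicate 1, and 4 to 5 without any other library, while all genes called ran from 547 without VNP2 replicate 1 to 1996 without VN replicate 1, with 582 and 578 without VN replicate 2 and 3 and 549 without VNP2 replicate 3. In 8 members the libraries of VNP2 and VN did not overlap, against 23.6% of all genes.

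**Figure D2:**
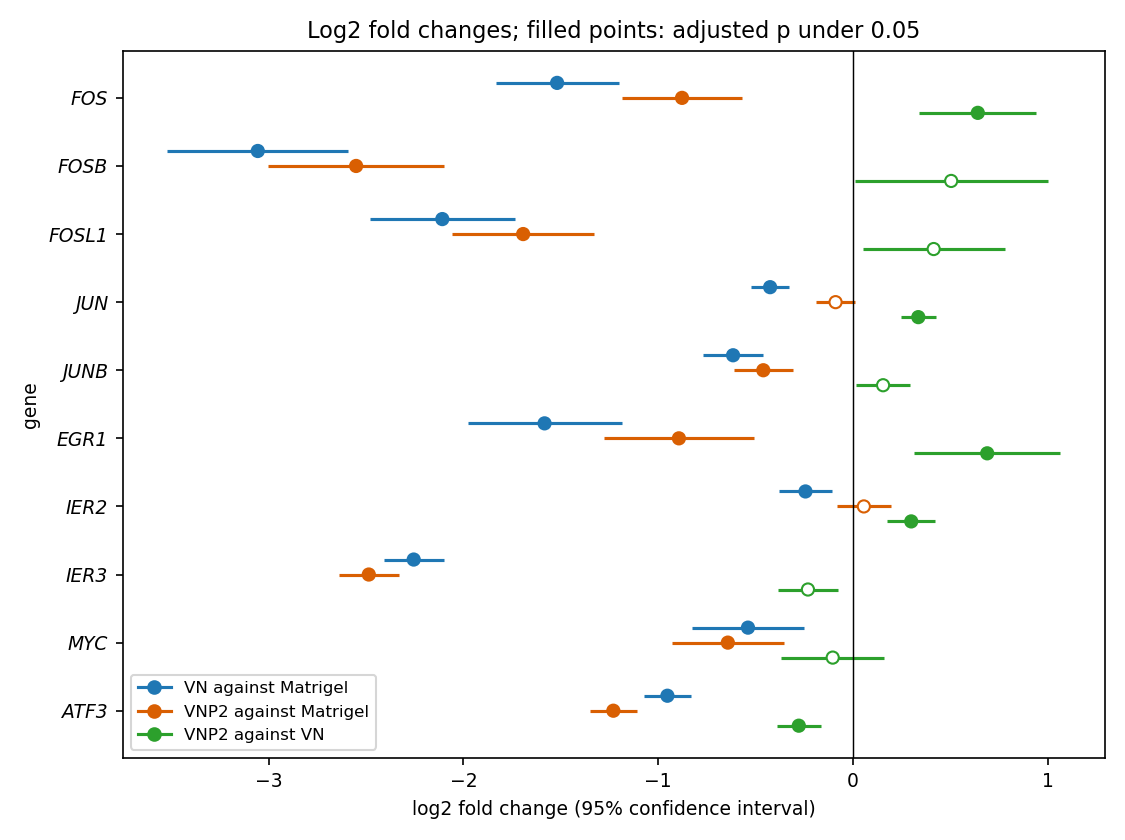
Log2 fold changes (horizontal axis) with 95% confidence intervals for the 10 members in VN against Matrigel, VNP2 against Matrigel and VNP2 against VN. Filled points passed an adjusted p of 0.05 and open points did not. All 10 intervals for VN lie below 0, while those of JUN and IER2 for VNP2 against Matrigel include 0.

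FOS encodes the founding partner of JUN in AP-1 (chr14:75278774-75282230). Its normalized counts were 176 and 211 on Matrigel, 62.9, 68.3 and 71.2 on VN, while VNP2 had 100.5, 111 and 104. The 3 substrates did not overlap, with VN lowest and VNP2 between. FOS fell by 1.52 on the log2 scale on VN (SE 0.142, edgeR adjusted p = 6.27e-05) and fell by 0.88 on VNP2 (SE 0.138, adjusted p = 0.00154). It was higher on VNP2 than on VN by 0.64 (SE 0.135, adjusted p = 0.0218). This last call was lost without VN replicate 2 or 3 or any 1 VNP2 library (edgeR adjusted p = 0.0512 to 0.0762), while its difference stayed between 0.60 and 0.68.

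FOSB, a FOS family protein known for its long-lived shortened form, changed most in size (chr19:45467995-45475179). The counts were 161 and 173 on Matrigel, 16.3, 18.4 and 25.8 on VN, while VNP2 had 29.5, 25.4 and 30.5. Both vitronectin substrates were thus far below Matrigel, and they overlapped each other. The log2 fold change was -3.06 on VN (SE 0.209, edgeR adjusted p = 6.84e-06), which is 0.120 times the Matrigel level, and -2.55 on VNP2 (SE 0.204, adjusted p = 1.33e-05). VNP2 against VN was not called, with a difference of 0.51 and a 95% interval of 0.0088 to 1.001 (adjusted p = 0.244). FOSB lies within the span of ERCC1 on the opposite strand, and whether the counting used strand is not given in the sources used here.

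FOSL1 encodes FRA1, a FOS family protein linked with invasive growth and wound response (chr11:65892049-65900573). Matrigel had 329 and 368 counts, VN 69.8, 87.3 and 85.2, and VNP2 132, 102 and 89.9. The Matrigel libraries stood well above all others, and the lowest VNP2 library lay just above the highest from VN. The gene fell by 2.11 on VN (SE 0.167, edgeR adjusted p = 1.94e-05) and fell by 1.69 on VNP2 (SE 0.164, adjusted p = 5.38e-05). The difference between VNP2 and VN, 0.42 with a 95% interval of 0.051 to 0.78, was not called (adjusted p = 0.196).

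JUN, the partner that binds DNA with any FOS protein, had high and even counts (chr1:58780788-58784327, minus strand). They were 2779 and 2837 on Matrigel, 2178, 2062 and 2034 on VN, while VNP2 had 2676, 2652 and 2593. VN was the low substrate, and VNP2 lay close under Matrigel. JUN fell by 0.42 on VN (SE 0.0448, edgeR adjusted p = 0.000146) and was higher on VNP2 than on VN by 0.34 (SE 0.0405, adjusted p = 0.000886). VNP2 against Matrigel was not called, with -0.089 and a 95% interval of -0.19 to 0.010 (adjusted p = 0.221).

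JUNB, a JUN family protein that restrains growth in many settings, fell on both vitronectin substrates (chr19:12791496-12793315). Its counts were 1491 and 1428 on Matrigel, 938, 959 and 961 on VN, while VNP2 had 1139, 1076 and 969. No VN or VNP2 library reached the Matrigel range, and the VN libraries were nearly equal. The log2 fold changes were -0.62 on VN (SE 0.0687, edgeR adjusted p = 0.000214) and -0.46 on VNP2 (SE 0.0684, adjusted p = 0.00107). VNP2 against VN was not called at 0.16, with a 95% interval of 0.016 to 0.29 (adjusted p = 0.205). JUNB lies within the span of HOOK2 on the opposite strand, and the same doubt about strand applies.

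EGR1, a zinc finger factor induced through SRF by growth factors, carries the CArG boxes printed above (chr5:138465490-138469315). Matrigel had 266 and 280.5 counts, VN 109, 74.1 and 90.5, and VNP2 171, 150 and 121. The substrates did not overlap, and the spread within VN and within VNP2 was wide, with coefficients of variation of 19.0% and 17.0%. EGR1 fell by 1.58 on VN (SE 0.178, edgeR adjusted p = 0.000226) and fell by 0.89 on VNP2 (SE 0.173, adjusted p = 0.00523). It was higher on VNP2 than on VN by 0.69 (SE 0.169, adjusted p = 0.0433). That call was lost in a fit of only the VN and VNP2 libraries (edgeR adjusted p = 0.0680) and without Matrigel replicate 2 or 3, VN replicate 2 or 3, or VNP2 replicate 1 or 2 (0.0693 to 0.155), with differences of 0.56 to 0.69.

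ATF3 encodes a stress-induced bZIP factor that pairs with JUN proteins and is also a target of the integrated stress response (chr1:212565334-212620777). The counts were 1458 and 1527 on Matrigel, 781, 755 and 777 on VN, while VNP2 had 639, 635 and 634. Here VNP2 was the lowest substrate, and no substrate overlapped another. ATF3 fell by 0.95 on VN (SE 0.0537, edgeR adjusted p = 1.65e-06) and fell by 1.23 on VNP2 (SE 0.0542, adjusted p = 2.23e-07). It was the member called lower on VNP2 than on VN, by 0.28 on the log2 scale (log2 fold change -0.28, SE 0.0510, adjusted p = 0.0108).

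MYC, a growth regulator that drives ribosome production with MAX, fell on both substrates (chr8:127735434-127741434). Matrigel had 1173 and 1258 counts, VN 745, 879 and 888, and VNP2 914, 632 and 792. VN and VNP2 overlapped. The log2 fold changes were -0.54 on VN (SE 0.130, edgeR adjusted p = 0.0195) and -0.64 on VNP2 (SE 0.130, adjusted p = 0.00677). The first call was lost without Matrigel replicate 2 (adjusted p = 0.0782) or 3 (0.133), and the second without Matrigel replicate 3 (0.0654). VNP2 against VN was not called (-0.10, 95% interval -0.37 to 0.16, adjusted p = 0.691), and its sign turned without VNP2 replicate 2, to 0.027. In that library the count was 76.2% of the value in the authors' normalized table, against 100.5 to 100.7% in the other 7. Transcripts that the older annotation lacks had been left out of these counts, and their part in this gap was not quantified. On the authors' normalized counts, the changes were -0.54 on VN (limma adjusted p = 0.00191) and -0.52 on VNP2 (limma adjusted p = 0.0018).

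IER2 and IER3 encode small immediate early proteins, IER2 a nuclear regulator and IER3 a survival protein acting on ERK signalling. IER2 (chr19:13150415-13154908) had 1673 and 1551 counts on Matrigel, 1442, 1366 and 1276 on VN, while VNP2 had 1724, 1652 and 1653, so VNP2 and Matrigel overlapped and VN was low. It fell by 0.24 on VN (SE 0.0623, edgeR adjusted p = 0.0251) and was higher on VNP2 than on VN by 0.30 (SE 0.0558, adjusted p = 0.0115). For VNP2 against Matrigel the difference was 0.056 with a 95% interval of -0.081 to 0.19 (adjusted p = 0.612). The fall on VN was lost without length offsets (adjusted p = 0.0763), with only the VN and Matrigel libraries (0.0597) and without Matrigel replicate 2 (0.218) or 3 (0.0567) or VN replicate 2 (0.0596) or 3 (0.0747), and the VNP2 against VN call was lost without VNP2 replicate 1 (0.0552). An antisense gene, AC011446.2, overlaps IER2.

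IER3 (chr6:30743199-30744554, minus strand) had the smallest p of the members against Matrigel. Its counts were 2737 and 2947 on Matrigel, 568, 570.3 and 648 on VN, while VNP2 had 528, 504 and 489. Every library off Matrigel was far below the control range, and VN lay above VNP2 without overlap. IER3 fell by 2.26 on VN (SE 0.0693, edgeR adjusted p = 4.44e-08) and fell by 2.49 on VNP2 (SE 0.0701, adjusted p = 1.46e-08), ranking 4 and 5 by p among all 18201 genes. VNP2 against VN, -0.23 with a 95% interval of -0.38 to -0.077, was not called (adjusted p = 0.0927). IER3-AS1 overlaps IER3 on the opposite strand.

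The members also differed in level. On Matrigel, IER3 led at 112 ± 6.44 TPM (SD, n = 2), over JUNB at 40.7 ± 1.03, JUN at 40.7 ± 0.795, ATF3, IER2 and MYC, with FOSB last at 2.05 ± 0.113. JUNB and JUN, ATF3 and IER2, and FOS and EGR1 were neighbours whose libraries overlapped. On VN, JUN led at 32.1 ± 0.651 TPM (n = 3), IER3 was 4th at 25.0 ± 2.18 and FOSB last at 0.263 ± 0.0678. On VNP2, JUN led at 40.1 ± 0.520, IER3 was again 4th at 21.0 ± 0.739 and FOSB last at 0.366 ± 0.0354. Neighbours whose libraries overlapped were JUN and IER2, JUNB and IER3, ATF3 and MYC, and FOS and EGR1 on VN, and IER3 and MYC, MYC and ATF3, and FOS and EGR1 on VNP2. Of these, MYC and ATF3 overlapped through VNP2 replicate 2 alone, the library whose MYC count was 76.2% of the authors' value. The 3 least expressed were FOS, EGR1 and FOSB on every substrate, and the highest mean was 54.8 times the lowest on Matrigel, 122 times on VN and 109 times on VNP2.

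**Figure D3:**
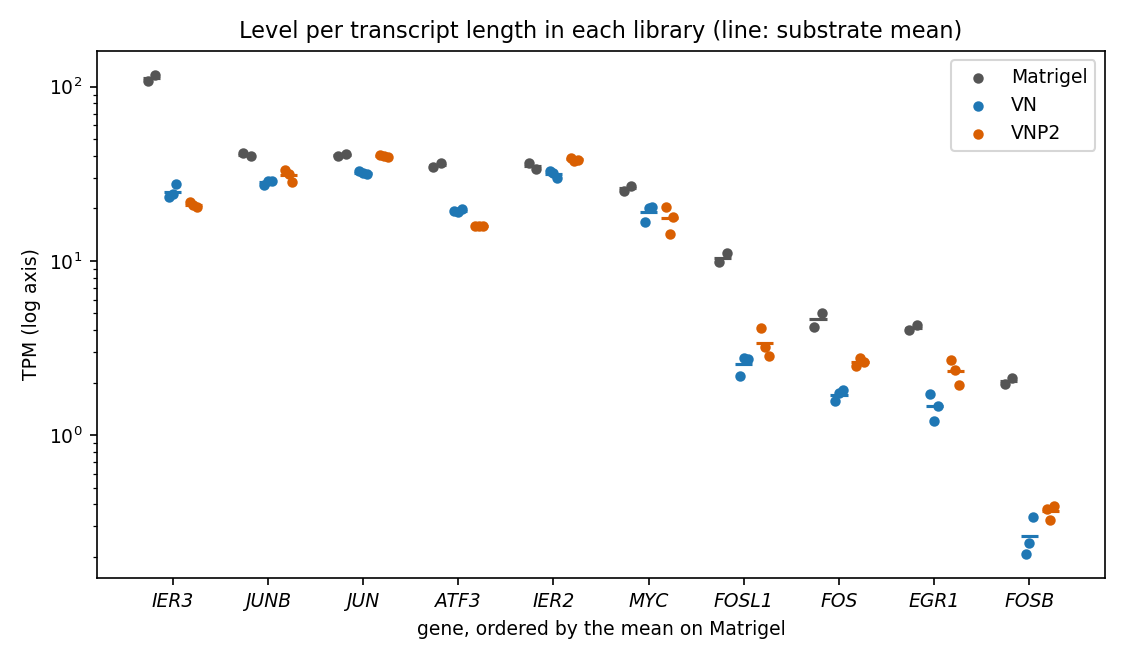
TPM of each member (vertical log axis) in each library by substrate, with genes ordered by their Matrigel mean. IER3 is highest on Matrigel at 112 TPM and drops to 25.0 on VN and 21.0 on VNP2, where JUN is highest.

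Because AP-1 is a dimer of FOS and JUN proteins, the families were also summed, adding FOSL2 and JUND, the members of the families outside the 10. The FOS family sum was 24.4 and 27.1 TPM on Matrigel, 5.51, 7.20 and 7.29 on VN, while VNP2 had 8.59, 7.35 and 7.28. The JUN family sum was 275 and 271 TPM on Matrigel, 264, 243 and 256 on VN, while VNP2 had 307, 270 and 304. The FOS sum was thus 8.89 and 9.97% of the JUN sum on Matrigel, 2.09 to 2.97% on VN and 2.39 to 2.79% on VNP2, so Matrigel did not overlap the others, while VN and VNP2 did overlap. JUND made up 70.1 to 77.7% of the JUN sum in every library and was not called in any pair of substrates (log2 fold changes -0.064, 0.15 and 0.21). FOSL2 changed by -2.11 (log2) on VN and by -2.73 on VNP2 (edgeR adjusted p = 2.55e-05 and 3.25e-06). These sums are of RNA, and no protein was measured.

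**Figure D4:**
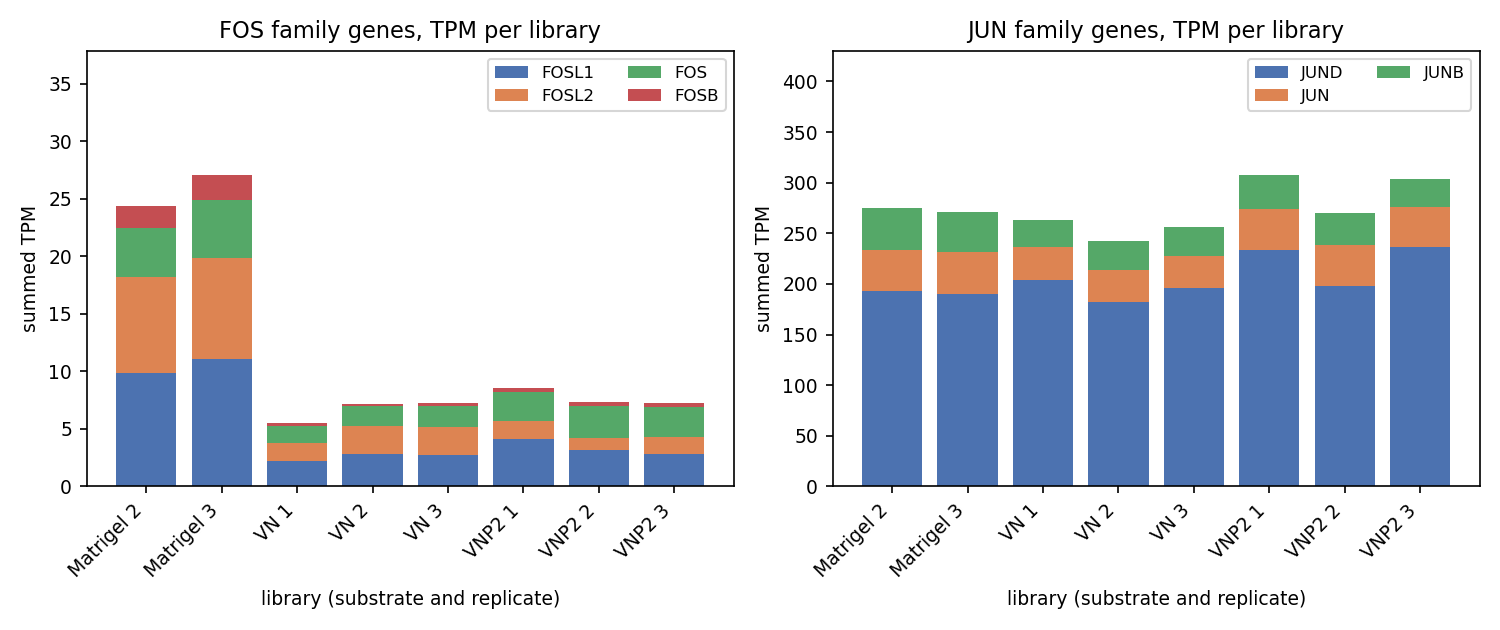
Summed TPM (vertical axes, from 0) of the FOS family and of the JUN family in each library, stacked by gene. The FOS family bars of the 2 Matrigel libraries reach 24.4 and 27.1 TPM and those of the other 6 stay at or under 8.59, while the JUN family bars lie between 243 and 307 TPM.

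The counts were also followed by transcript. JUN, JUNB and EGR1 have 1 annotated transcript each. The ATF3 transcript that starts at chr1:212608670 and codes for protein took 87.9 to 90.7% of the ATF3 counts in every library, and the main transcript of IER3 took 93.9 to 99.3% of those of IER3. The most used transcript of FOS took 84.0 to 100% and that of IER2 57.8 to 68.5%. The most used FOSB transcript took 91.9 and 68.5% on Matrigel. In the VN and VNP2 libraries it took 0 to 88.9%, so FOSB forms could not be told apart there at this depth.

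The other genes of the response were taken from lists that were chosen with earlier results of these data known. Over all genes tested, 9.60% fell and 5.66% rose on VN, 9.13% fell and 7.44% rose on VNP2, and the medians of the log2 fold changes were 0.0044 and 0.0024. For VNP2 against VN, 3.09% were higher and 2.01% lower, with a median of 0.00073. Of 13 other AP-1 genes tested, 7 fell and 1 rose on VN, 6 fell and 1 rose on VNP2, and VNP2 against VN had 1 higher and 1 lower, with medians of -0.20, -0.10 and -0.026. JDP2, a repressor that pairs with JUN, changed by -0.91 (log2) on VN and by -1.59 on VNP2, and BATF3, a related bZIP factor, by -1.34 and by -1.03. BATF2 rose on VNP2 by 1.25 (edgeR adjusted p = 0.00438). Of 17 other immediate early transcription factors, 5 fell and 2 rose on VN and 4 fell and 4 rose on VNP2. BHLHE40, a circadian repressor, had log2 fold changes of -1.44 and -1.35, CSRNP1 had -1.19 and -1.32, and KLF5 rose on VNP2 by 1.03. The close relatives of EGR1, named after their values were seen, were too low to test, with 47 counts for EGR2, 31 for EGR3 and 1 for EGR4 over the 8 libraries.

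Of 25 other immediate early genes tested, 16 fell and 1 rose on VN and 15 fell and 3 rose on VNP2 (medians -0.40 and -0.36). CCN1, a matricellular protein, changed by -1.69 (log2) on VN and by -2.12 on VNP2, HBEGF, a ligand of the EGF receptor, had -1.72 and -1.97, and GADD45B had -1.32 and -1.70. Of 16 AP-1 target genes tested, 12 fell and none rose on each substrate (medians -0.93 and -0.81). IL11, a cytokine, had a log2 fold change of -2.83 on VN and -3.35 on VNP2, and PLAU, which encodes urokinase, had -2.69 and -1.90, with VNP2 above VN by 0.79 (edgeR adjusted p = 0.0114). This list shares genes with others, FOSL1 among them.

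Upstream, of 11 genes of SRF and its partners, 4 fell and none rose on each substrate, with ELK3, a ternary complex factor, at a log2 fold change of -0.68 on VN and -0.31 on VNP2 and SRF at -0.32 and -0.28. Of 20 genes of the ERK pathway, 3 fell on VN, and 2 fell and 1 rose on VNP2, the adaptor SHC1 at -0.44 and -0.60. Of 13 genes of the JNK and p38 pathways, 2 rose and 1 fell on VN and 3 rose on VNP2. The 16 genes of FGF and ERK feedback include EGR1, FOSL1 and PHLDA1. Of them, 1 rose and 4 fell on VN, 9 rose and 3 fell on VNP2, and 13 were higher on VNP2 than on VN. SPRY4, a feedback inhibitor named after its values were seen, was higher on VNP2 than on Matrigel by 0.63 (edgeR adjusted p = 0.000197) and than on VN by 0.77 (adjusted p = 0.000112).

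Of 20 MYC target genes of ribosome biogenesis, 12 fell on VN and 5 on VNP2 with none rising (medians -0.19 and -0.13), led by NOP16 at a log2 fold change of -0.39 and RRP12 at -0.35 on VN. Of 11 genes of the MYC network, 3 rose and 1 fell on VN and 2 rose and 1 fell on VNP2. Of 15 genes of the integrated stress response, 8 fell on VN and 11 on VNP2, and 5 were lower on VNP2 than on VN. CHAC1 fell by 1.32 on VNP2 (edgeR adjusted p = 0.000656). Of 12 heat shock genes tested, 6 fell on VN and 5 fell and 1 rose on VNP2, with HSPB1 at -0.46 (log2) on each. Between VNP2 and VN, 4 heat shock genes were higher on VNP2 and none was lower.

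**Figure D5:**
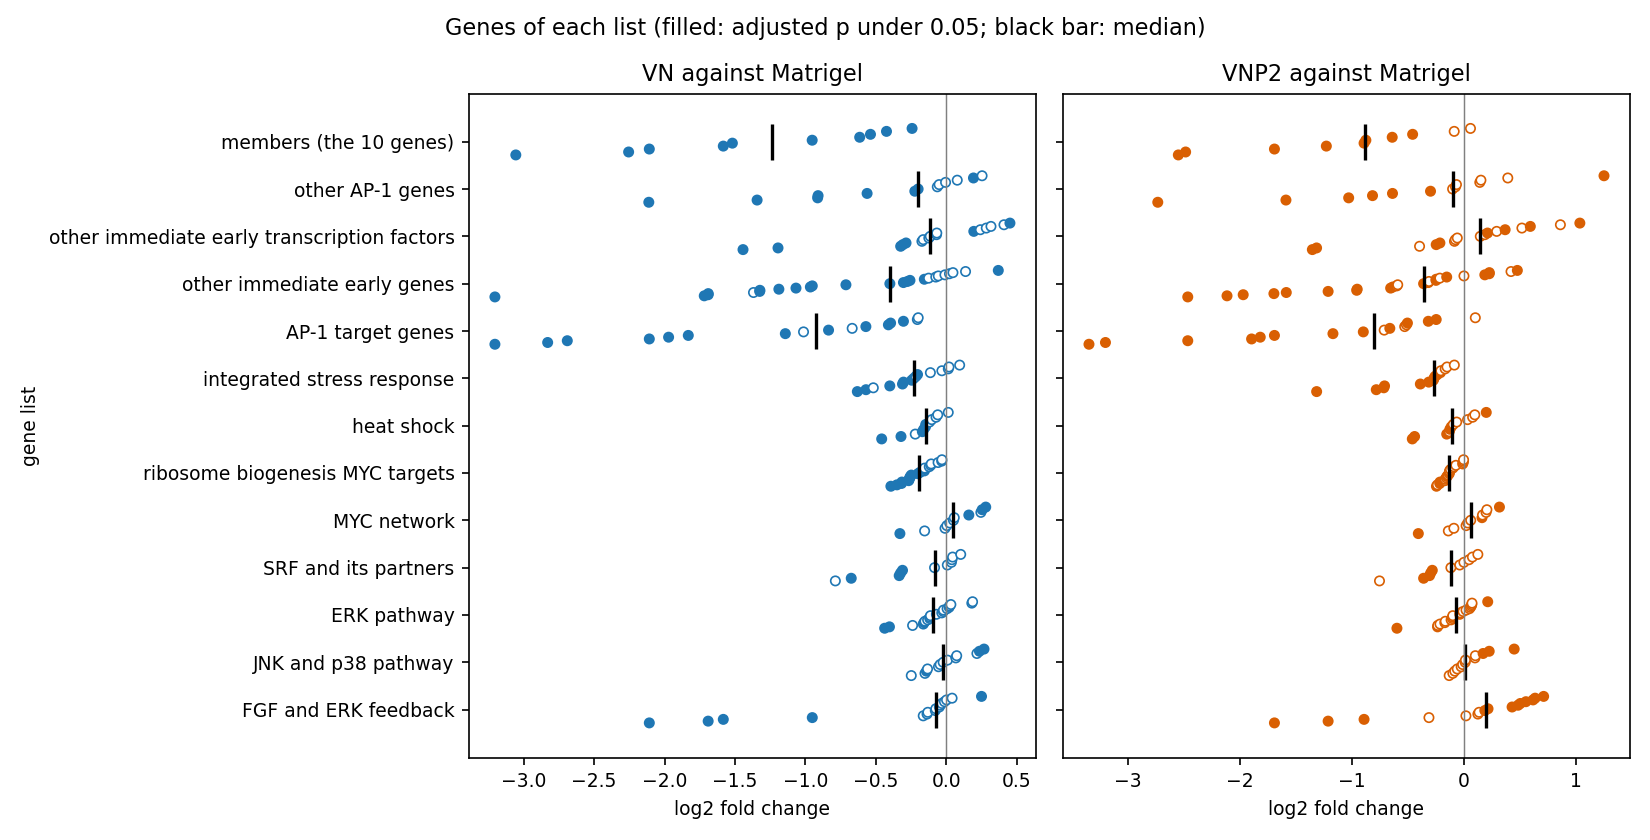
Log2 fold changes (horizontal axes) of the genes of each list on VN and on VNP2 against Matrigel, filled where the adjusted p was under 0.05, with the median of each list as a black bar. The members and the AP-1 target genes have the lowest medians, -1.24 and -0.93 on VN and -0.89 and -0.81 on VNP2.

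Markers of other cells differed in level too. The summed level of neural progenitor markers ranged from 3430 to 3505 TPM on Matrigel, 2862 to 2924 on VN and 3166 to 3212 on VNP2, with PAX6 at 36 counts in all. Mesenchymal markers summed to 504 to 515, 574 to 610 and 493 to 527 TPM, neuron markers to 682 to 720, 762 to 822 and 825 to 842, neural crest markers to 44.7 to 45.7, 59.4 to 69.3 and 61.1 to 62.9, and pluripotency markers to 91.2 to 95.9, 79.9 to 81.9 and 75.7 to 79.6. Astrocyte markers stayed under 1 TPM. Of the markers tested, 2 of 5 for OPCs rose on VN and 5 of 5 on VNP2 (5.66 and 7.44% of all genes), and none fell. For neural progenitors 2 of 4 fell on VN, and 2 fell and 1 rose on VNP2. Of 7 mesenchymal markers 3 rose and 2 fell on VN, and 5 rose and 2 fell on VNP2, while 3 of 5 neuron markers rose on each. For neural crest 1 of 4 rose on VN and 2 on VNP2, and for pluripotency 1 of 5 fell on VN, and 2 fell and 1 rose on VNP2. Their part in the members' changes was not tested.

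The genes most like each member over the 8 libraries, measured by the root mean square difference of centred log2 counts among 12995 genes with a mean of at least 100 (12996 for FOSB), were ETS1 for FOS (0.132), ANXA1 for FOSL1 (0.169), EGF for FOSB (0.345), ITGB5, the integrin beta 5 subunit, for JUN (0.0368) and CYSTM1 for JUNB (0.0461). They were PDE1C for EGR1 (0.0958), GPC4 for ATF3 (0.0555), NCEH1 for MYC (0.0912), SEPT9 for IER2 (0.0283) and ANKRD33B for IER3 (0.0637). Among the members themselves the closest pair was JUN and IER2 (0.0844).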

How the data were processed

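The authors trimmed reads with Trim Galore and ran Salmon on GRCh38 transcripts, and they deposited estimated counts and TPM per transcript, neither rounded nor normalized between libraries. The authors' normalized counts, a gene-level signal from tximport and DESeq2 1.27.12, were also deposited and served for checks and 1 alternative. Transcripts were joined by identifier to GENCODE v29, which matched 205225 of 226608 transcripts and 98.8 to 98.9% of the counts. Counts were summed per gene, rounded, and fitted with length offsets, TMM and filterByExpr (minimum count 10, total 15) in edgeR 4.0.16 (R 4.3.3), with quasi-likelihood tests, no replicate block, and Benjamini-Hochberg adjustment over 18201 genes. All 8 libraries entered the fit. SE is the log2 fold change over the root of F. Alternatives used DESeq2 1.42.0, limma 3.58.1 (pseudocount 1) and others. Python 3.11.15 with pandas 2.3.3 joined the tables. Scripts were tested on simulated counts of VNP2 against Matrigel, where the share of unchanged genes among those called was above the nominal 5%. The adjusted p may therefore understate that share when few genes are called. Far fewer genes changed in the simulation than were called here, so it cannot give the share for these calls. Named list genes were those with the 4 largest changes among called genes of a list, and markers, SRF and ERK genes from their lists. A gene that this rule names is not reported here. Members and lists were chosen with earlier results of these data known. Correlations of deviations from the substrate means ran from -0.173 to 0.182 for same-numbered libraries and from -0.228 to 0.236 for differently numbered ones. Deviations within groups of 2 or 3 libraries sum to 0, which constrains these values. They therefore cannot decide whether the replicate numbers pair the libraries. Intervals cover 95%.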

Additional observations from a re-analysis of the deposited data

How the results depend on the processing

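DESeq2, RLE normalization, no length offsets, no filter, limma on the authors' normalized counts and fits of only the pair's libraries kept the direction of every member, except MYC in VNP2 against VN, which turned to 0.017 on the authors' table and ran from -0.23 to 0.027 with a library left out. Calls that were lost are given beside each gene, and the causes were not tested. With the replicate block, the members called stayed at 10, 8 and 5 for VN against Matrigel, VNP2 against Matrigel and VNP2 against VN, and all genes called were 3389, 3170 and 1146, against 2778, 3016 and 928 without it. Leaving out each library in turn gave 8 to 10 members called for VN against Matrigel, 7 to 8 for VNP2 against Matrigel, 2 to 5 for VNP2 against VN and 9 to 10 across the substrates. The same omissions gave 1188 to 3899, 1609 to 3608, 547 to 1996 and 1879 to 4975 genes called. Of the omissions, a lone Matrigel library was assumed to vary like the other groups. The number of neighbours by TPM whose libraries did not overlap was 5 on VN, 6 on Matrigel and 6 on VNP2. It ran from 5 to 8 when VN lost a library and from 7 to 8 when VNP2 did. Overlap is harder to find among fewer libraries, so these ranges cannot show how firm the separation is. A lone Matrigel library gives a single value per gene, which leaves no overlap to find, so that omission tests nothing here. FOSB on VN and VNP2 is limited most by depth.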

Other observations

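ATF3 was among the most even genes between replicates: its within-substrate SD of log2 counts was 0.0268, and 99.4% of the 500 genes of like level had a larger one. MYC was at the other end, with an SD of 0.195 and 2.80% of such genes larger, but VNP2 replicate 2 had the low MYC count given above. The SD of MYC over the VNP2 libraries was 142 in these counts and 61.7 in the authors' normalized counts. ETS1, the gene most like FOS, changed by -1.38 on VN and -0.97 on VNP2 against Matrigel, and CTGF (CCN2) by -1.33 and -0.96.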
